A study of Mus musculus with 18 samples.

Results

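The voltage-gated sodium and calcium channel genes of the mouse were followed across brush cells, EpCAM+ epithelial cells and CD45+ cells sorted from the trachea. Members were all gene symbols of the deposited count table that begin with Scn and end in a number and a or b, or that begin with Cacna, Cacnb or Cacng and go on with a number. The rule found 40 of 26327 symbols and used no measured value. By role they were 10 sodium channel alpha subunits, 4 sodium channel beta subunits, 10 calcium channel alpha1 subunits, 4 alpha2delta subunits, 4 calcium channel beta subunits and 8 gamma subunits.

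RNA was sequenced from 18 libraries of naive mice of a ChAT-eGFP reporter line on a B6 background, in which a BAC transgene drives eGFP from the Chat promoter. Brush cells, the rare chemosensory cells of the airway lining, were sorted as CD45-, EpCAM+ and eGFP+ (7 libraries). EpCAM+ cells were sorted as CD45- and EpCAM+ (7 libraries), by a gate that as labelled does not exclude eGFP+ cells, and CD45+ hematopoietic cells gave 4 libraries. All 3 populations came from tracheas digested with dispase and then papain, with dead cells excluded by propidium iodide, and all mice carried the transgene. The labels give no age and do not say whether libraries of a population came from separate animals, so the spread behind each p-value is that between libraries and may be technical.

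Voltage-gated channels open when the membrane depolarises. The large alpha or alpha1 subunit forms the pore: in sodium channels it carries the fast inward current that starts action potentials, and in calcium channels it admits the calcium that triggers secretion, contraction and gene expression. Calcium channel beta subunits bind the pore from the cytoplasm and promote its transport to the surface, alpha2delta subunits are extracellular proteins that raise surface density, and sodium channel beta subunits are small membrane proteins that also act in cell adhesion. Gamma subunits include a skeletal muscle channel subunit and proteins that regulate AMPA receptors. Brush cells share a taste transduction cascade with taste cells, in which intracellular calcium release opens the cation channel Trpm5.

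Brush libraries held 838328 to 6031711 counts, EpCAM+ libraries 2442601 to 6087184 and CD45+ libraries 371652 to 7438791, of which ribosomal RNA genes took 12.2 to 63.5%. Brush cell and pan-leukocyte markers were highest in the libraries sorted for these cells. The summed level of 7 brush cell markers spanned 8648 to 10211 CPM (counts relative to library size after TMM scaling) in the brush group, 8.07 to 33.7 CPM in the EpCAM+ group and 0 to 57.8 CPM in the CD45+ group. That of 5 pan-leukocyte markers was 13.9 to 37.2, 0 to 2.16 and 4879 to 6168 CPM. Club and goblet cell markers, 5 in all, summed to 210 to 2990, 23873 to 128997 and 241 to 1307 CPM in the same order. Fibroblast and chondrocyte markers, given below, were highest in the EpCAM+ group. In each population 1 library was set apart for an alternative fit: brush replicate 4, EpCAM+ replicate 5 and CD45+ replicate 1. Brush replicate 4 and CD45+ replicate 1 had the highest ribosomal RNA share of their groups, 63.5% and 43.4%. EpCAM+ replicate 5 had the lowest of its group, 12.2%. Brush replicate 4 and CD45+ replicate 1 were also the shallowest, so that a single read was a large step there.

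Of the 40 genes, 16 had enough counts to be tested. In brush cells 6 of these were higher and 2 lower than in EpCAM+ cells (edgeR quasi-likelihood test, Benjamini-Hochberg adjusted p below 0.05 over 13418 genes). The background was 40.3% of all genes tested (18.3% higher and 22% lower), so the total called lay near that of genes at large. The higher genes were the pore subunit genes Scn2a, Cacna1a, Cacna1d and Cacna1e, the alpha2delta gene Cacna2d2 and the beta subunit gene Cacnb4, and the lower ones were Scn3b and Cacna2d1. Against CD45+ cells 7 were higher (Scn2a, Cacna1a, Cacna1c, Cacna2d1, Cacna2d2, Cacnb2, Cacnb4) and 3 lower (Cacna1e, Cacna1i, Cacna1s), where 23.4% and 22.4% of all genes were called higher and lower. In EpCAM+ cells against CD45+ cells 3 were higher (Scn3b, Cacna2d1, Cacna2d2) and 4 lower (Cacna1s, Cacna1e, Cacna1i, Cacna1d), against 22.5% and 18.1% of all genes. Called genes whose libraries did not overlap numbered 5 higher and 1 lower for brush against EpCAM+ cells (9.54% and 10.7% of all genes tested), 4 and 3 for brush against CD45+ cells (16.8% and 13.8%) and 2 and 3 for EpCAM+ against CD45+ cells (15.9% and 11.4%). These 3 comparisons share libraries. The median log2 fold change of the 16 genes was 1.09 for brush over EpCAM+ cells, 1.46 for brush over CD45+ cells and 0.45 for EpCAM+ over CD45+ cells, against -0.06, 0.05 and 0.08 for all genes. In sorted bulk RNA, fewer cells of a type and less RNA per cell cannot be told apart.

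**Figure D1:**
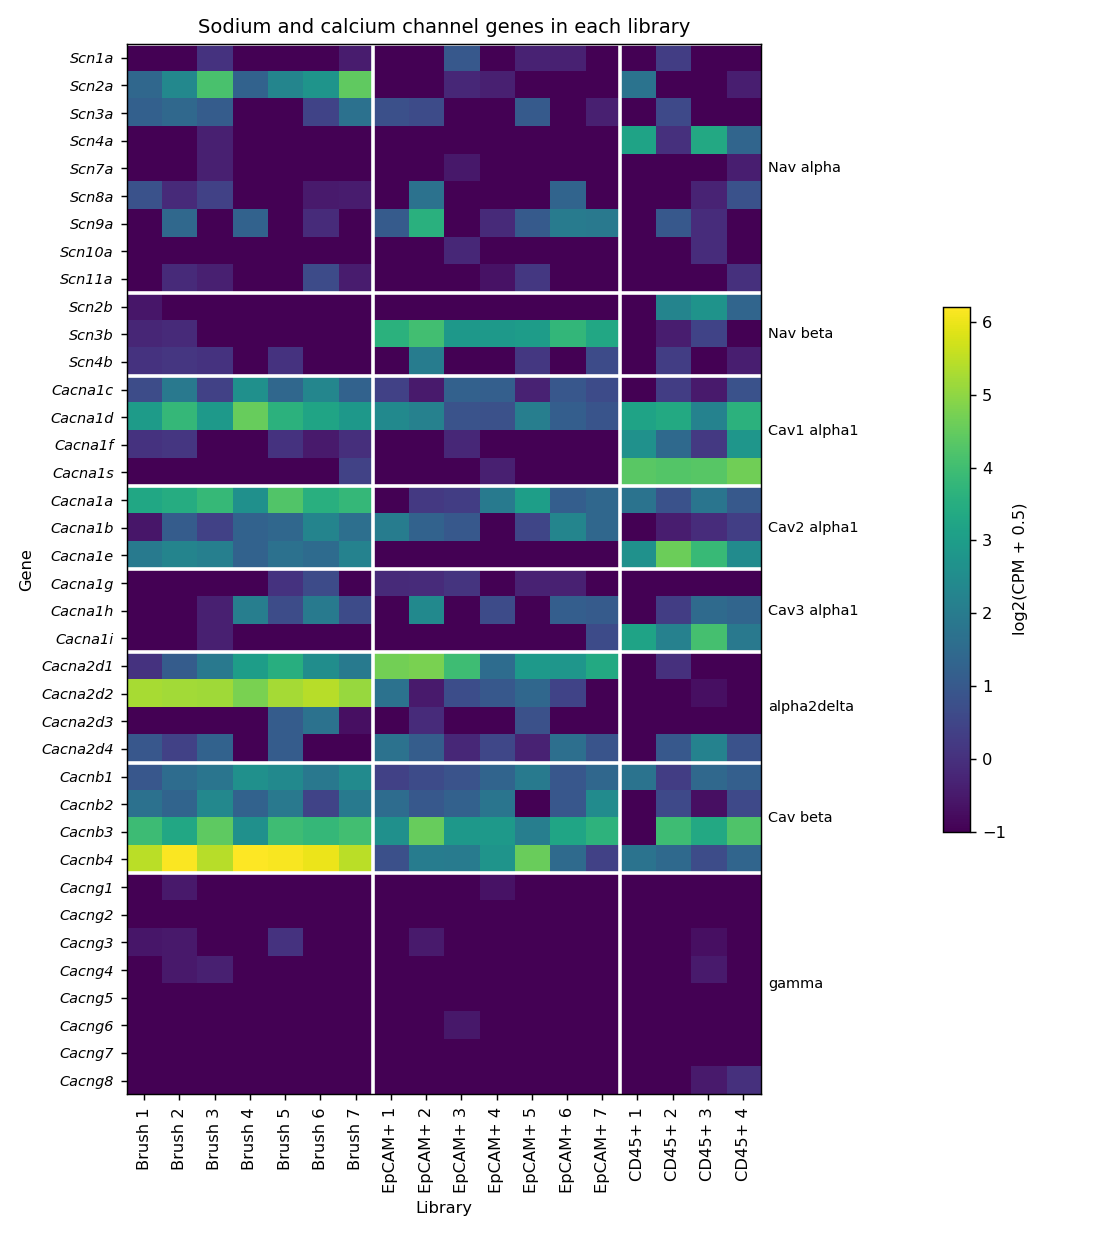
Level of the channel genes reported here (rows, grouped by subunit role) in each of the 18 libraries (columns), as log2(CPM + 0.5) by colour. Cacna2d2 and Cacnb4 are bright in all 7 brush libraries, Scn3b in all 7 EpCAM+ libraries and Cacna1s in all 4 CD45+ libraries, while the gamma subunit rows stay dark.

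Cacna2d2, the alpha2delta-2 subunit that is best known from cerebellar neurons, was in CPM the most even of the tested channel genes in brush cells. It lies on chromosome 9 (107399612 to 107529343, plus strand, GRCm38). Its level was 26.4 CPM in the lowest brush library, 36.5 in the median and 42.7 in the highest, against 0, 1.114 and 2.81 CPM in EpCAM+ libraries and 0, 0, 0.110 and 0 CPM in the 4 CD45+ libraries. All 7 brush libraries were above all others, and the coefficient of variation over brush libraries was 13.9%. Brush over EpCAM+ cells differed by 4.90 ± 0.44 on the log2 scale (SE; adjusted p = 6.69e-09), and 3.68 in the RSEM expected counts. CD45+ cells had 1 count in all, giving a ratio of 640 for brush over CD45+ cells (95% counting interval 115 to 25302, which covers counting error only, adjusted p = 9.74e-09), and the fitted log2 value of 8.74 was 10.17 without CD45+ replicate 3.

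Promoter windows of Cacna2d2, Cacnb4 and Scn2a are shown next, because these genes were high in the same brush libraries. Cacna1d and Cacna1e, also called higher than in EpCAM+ cells, have windows that are not printed. Each window holds 250 bases before and 50 after a RefSeq transcription start in GRCm38.p6, on the gene's strand. Of the 40 members, 30 had windows, 41 in all. Those without included Cacna1a, Cacna1g, Cacna1h, Cacna2d4, Cacng1, Cacng4, Scn3a and Scn3b. Capitals mark matches to GGGCGG (the GC box) or TATAAA on either strand, which occur in 35.7% and 13.6% of 32851 mouse promoter windows. The octamer ATGCAAAT (1.74% of windows) and the cyclic AMP response element TGACGTCA (1.79%) were also searched on both strands, and none of the 41 windows held either.
Cacna2d2, chr9:107399630-107399929, plus strand: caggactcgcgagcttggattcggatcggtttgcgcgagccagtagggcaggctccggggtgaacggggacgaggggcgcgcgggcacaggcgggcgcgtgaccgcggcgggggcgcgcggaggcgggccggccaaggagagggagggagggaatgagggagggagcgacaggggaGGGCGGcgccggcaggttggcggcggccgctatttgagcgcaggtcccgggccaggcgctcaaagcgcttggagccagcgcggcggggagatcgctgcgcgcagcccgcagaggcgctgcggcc
Cacnb4, chr2:52676094-52676393, minus strand: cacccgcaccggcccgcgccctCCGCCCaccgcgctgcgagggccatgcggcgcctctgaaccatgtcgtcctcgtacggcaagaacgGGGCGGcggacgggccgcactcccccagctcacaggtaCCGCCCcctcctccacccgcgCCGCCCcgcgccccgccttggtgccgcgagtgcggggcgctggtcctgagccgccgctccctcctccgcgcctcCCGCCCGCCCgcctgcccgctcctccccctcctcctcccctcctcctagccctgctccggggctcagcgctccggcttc
Scn2a, chr2:65620519-65620818, plus strand: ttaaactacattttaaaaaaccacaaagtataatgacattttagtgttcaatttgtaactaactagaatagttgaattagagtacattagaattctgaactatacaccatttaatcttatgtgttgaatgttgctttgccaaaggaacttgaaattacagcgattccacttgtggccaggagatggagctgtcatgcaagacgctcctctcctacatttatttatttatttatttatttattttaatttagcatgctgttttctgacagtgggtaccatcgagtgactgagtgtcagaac
Scn2a, chr2:65668436-65668735, plus strand: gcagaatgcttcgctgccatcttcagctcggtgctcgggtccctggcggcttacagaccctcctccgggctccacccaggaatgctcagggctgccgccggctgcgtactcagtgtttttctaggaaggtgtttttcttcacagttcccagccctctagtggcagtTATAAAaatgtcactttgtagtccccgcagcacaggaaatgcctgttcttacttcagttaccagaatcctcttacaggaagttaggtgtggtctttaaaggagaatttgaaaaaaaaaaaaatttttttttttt

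The Cacna2d2 window was 75.7% G and C with 43 CpG dinucleotides and held 1 GC box. The Cacnb4 window, the 5′-most of 3, was 78.3% G and C with 40 CpG and held 6 GC boxes, of which the last pair overlap. The upstream Scn2a window was 33% G and C with 3 CpG and held none of the motifs, and the downstream one held 1 TATA match. The median over all windows was 52.7% G and C and 7 CpG. The 2 other Cacnb4 windows, not printed, were 69.7% G and C with 27 CpG and 49.7% G and C with 5 CpG, and the downstream Scn2a window was 47.7% G and C with 9 CpG, so the windows of 1 gene fell on both sides of a median. Of the Cacna1d windows, 1 was 87.3% G and C with 6 GC boxes and 1 was 40.3% G and C with 3 TATA matches. The Cacna1e window was 55.3% G and C and held none of the motifs. Such matches describe letters in a window and do not show binding.

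Cacna2d1 encodes alpha2delta-1, the widely expressed subunit and a target of gabapentin. Its level was 0.544, 3.45 and 10.9 CPM in the lowest, median and highest brush libraries, against 2.43, 9.97 and 26.3 CPM in EpCAM+ libraries and 0, 0.499, 0 and 0 CPM in CD45+ libraries. Brush and EpCAM+ libraries overlapped, and EpCAM+ replicates 1 and 2 were the highest. Brush over EpCAM+ cells gave a log2 fold change of -1.63 ± 0.59 (adjusted p = 0.0312). This call was lost without any one of brush replicates 1, 2, 3 and 7 or EpCAM+ replicates 1 and 2 (adjusted p up to 0.0806) and with a replicate block (0.104). Against CD45+ cells, which had 2 counts, the ratio for brush cells was 29.7 (95% counting interval 8.02 to 249, adjusted p = 0.00137). The fitted log2 value of 4.78 was 7.19 without CD45+ replicate 2 and 4.00 without CD45+ replicate 3.

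Per transcript length, Cacna2d2 took 85.8 ± 15.2% of the summed alpha2delta TPM in brush cells against 29.3 ± 30.1% in EpCAM+ cells, and Cacna2d1 took 10.9 ± 14.2% of it in brush cells against 63.1 ± 30.3% in EpCAM+ cells (SD, n = 7 each). The Cacna2d2 share ran from 58.2 to 97.2% in brush libraries and from 0 to 78.4% in EpCAM+ libraries, which overlap, and the shares were not tested. The sum was 14.1 ± 7.01 TPM in brush cells, 3.26 ± 1.95 in EpCAM+ cells and 0.585 ± 0.689 in CD45+ cells (SD, n = 7, 7 and 4). Fibroblast and chondrocyte markers summed to 3.81 to 26.4 CPM in the brush group, 251 to 520 in the EpCAM+ group and 5.48 to 29.9 in the CD45+ group, with all 6 detected in each population. Basal cell markers summed to 34.4 to 115 CPM, 890 to 2397 CPM and 2.87 to 27.9 CPM, with all 5 detected in each. The part of either in the levels of Cacna2d1 was not tested. Cacna2d3, a neuronal member, had 17, 6 and 0 counts in all brush, EpCAM+ and CD45+ libraries, and Cacna2d4, known from photoreceptors, had 22, 39 and 48.

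Cacnb4 encodes the beta4 subunit, whose loss causes the lethargic phenotype in mice. The gene lies on chromosome 2 (52428320 to 52676831, minus strand). Its level was 42.8, 63.6 and 73.5 CPM in the lowest, median and highest brush libraries, against 0.809, 3.53 and 23.1 CPM in EpCAM+ libraries and 2.87, 2.24, 1.10 and 2.03 CPM in CD45+ libraries. Brush libraries lay above all others, and EpCAM+ replicate 5 stood far above the other EpCAM+ libraries. Its log2 fold change was 3.32 ± 0.51 over EpCAM+ cells (adjusted p = 1.25e-05) and 5.0 ± 0.77 over CD45+ cells (9.26e-06), and without EpCAM+ replicate 5 the first was 4.19.

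The size of the Cacnb4 difference depended on how reads were counted. The deposited count table held 1586 counts over brush libraries and 171 over EpCAM+ libraries, whereas the RSEM expected counts were 1085 and 10. EpCAM+ replicate 5 had 75 counts in the first and 1 in the second, and EpCAM+ replicate 4 had 46 and 0. With expected counts the log2 fold change of brush over EpCAM+ cells was 6.72 (adjusted p = 2.24e-09), above the 3.32 of the count table. The annotation places the transcript A430018G15Rik on the opposite strand over the 3′ end of Cacnb4 (52428320 to 52434885) and the pseudogene Bloc1s2-ps within the gene (52619754 to 52620185). The strand setting of the counting is not given here, and the part of these overlaps was not tested. Brush cells were above EpCAM+ cells by both methods.

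**Figure D2:**
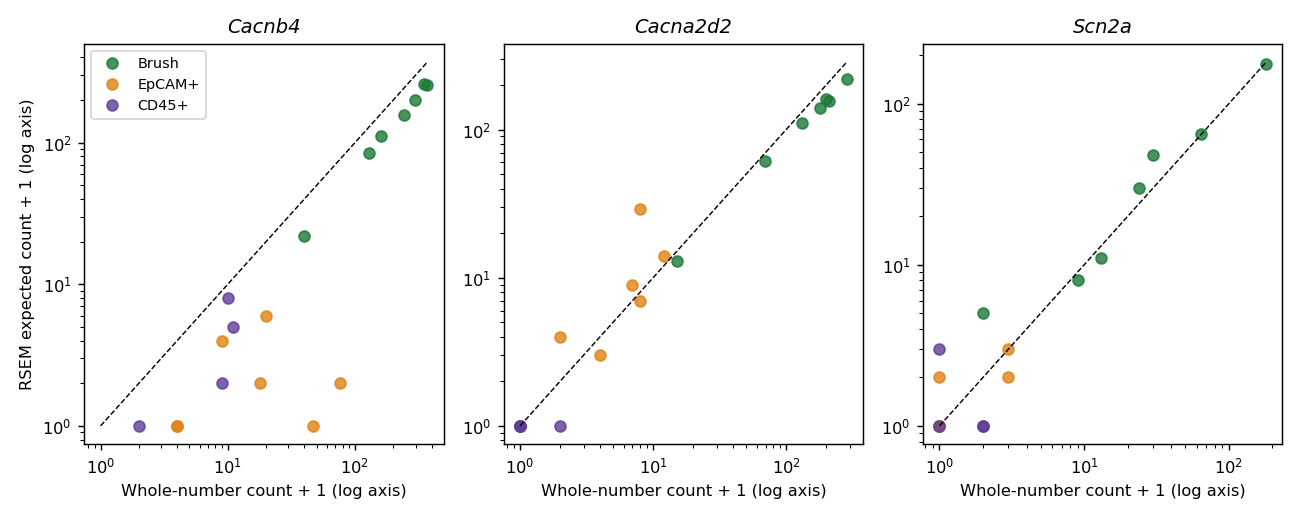
Whole-number count plus 1 (x, log axis) against RSEM expected count plus 1 (y, log axis) for Cacnb4, Cacna2d2 and Scn2a, 1 point per library and coloured by population, with equality dashed. For Cacnb4 the EpCAM+ points fall far below the line, where 171 counts in all stand against 10 expected counts.

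The other beta subunit genes differed less. Cacnb3, the beta3 subunit, was at 5.66, 14.9 and 21.1 CPM in the lowest, median and highest brush libraries, against 3.70, 6.87 and 22.5 CPM in EpCAM+ libraries and 0, 15.2, 9.64 and 18.03 CPM in CD45+ libraries. The groups overlapped and neither brush contrast passed the test (adjusted p = 0.303 and 0.757). Cacnb1, the beta subunit of the skeletal muscle channel, averaged 3.66 ± 1.55 CPM over brush libraries, 1.74 ± 0.876 over EpCAM+ libraries and 1.90 ± 0.890 in CD45+ cells (SD, n = 7, 7 and 4). Its log2 fold change over EpCAM+ cells was 0.99 ± 0.46 (adjusted p = 0.0881), and it passed in expected counts (1.46, adjusted p = 0.0142).

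Cacnb2, the cardiac beta subunit, averaged 2.69 ± 1.23 CPM over brush libraries, 2.18 ± 1.59 over EpCAM+ libraries and 0.531 ± 0.551 in CD45+ cells (SD). Its libraries ran from 0.853 through a median of 2.72 to 4.61 CPM in brush cells and from 0 through 1.86 to 5.12 CPM in EpCAM+ cells, against 0, 0.997, 0.110 and 1.02 CPM in CD45+ cells, so the groups overlapped. Brush over CD45+ cells gave a log2 fold change of 2.10 ± 0.85 (adjusted p = 0.0458). The call was lost in 13 of 27 alternative settings, among them those without each of the 4 CD45+ libraries (adjusted p up to 0.166). Summed over the 4 genes, beta subunit transcripts came to 17.3 ± 5.15 TPM in brush cells, 6.12 ± 3.27 in EpCAM+ cells and 4.41 ± 2.31 in CD45+ cells. In brush cells Cacnb3 took 39.3 ± 11.1% of that sum and Cacnb4 35.2 ± 9.3%.

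Among the pore subunits of calcium channels, Cacna1a was the leading one in brush cells per transcript length. In CPM it lay close to Cacna1d, at 11.8 ± 4.04 against 11.1 ± 5.75 over brush libraries (SD, n = 7). Cacna1a encodes the P/Q-type channel that drives transmitter release at many synapses, and lies on chromosome 8 (84388440 to 84640246, plus strand). Its level was 5.66, 11.1 and 18.5 CPM in the lowest, median and highest brush libraries, against 0, 1.73 and 7.71 CPM in EpCAM+ libraries and 2.87, 1.25, 2.96 and 1.52 CPM in CD45+ libraries. Only EpCAM+ replicate 5, at 7.71 CPM, reached into the brush range, and brush replicate 4 was the lowest of its group. Its log2 fold change was 2.34 ± 0.54 over EpCAM+ cells (adjusted p = 0.00118; 2.95 without EpCAM+ replicate 5) and 2.54 ± 0.72 over CD45+ cells (0.00545). Of the summed TPM of the 10 alpha1 genes, 74.2 ± 8.4% was Cacna1a in brush cells and 55.5 ± 30.4% in EpCAM+ cells. Over brush libraries Cacna1a had 284 expected counts and 8.83 TPM, and Cacna1d had 226 and 1.29 TPM. The lead of Cacna1a in TPM thus rests largely on the transcript lengths used, which were not examined.

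Cacna1d and Cacna1e, an L-type and an R-type channel gene, were higher in brush cells than in EpCAM+ cells, and both were also present in CD45+ cells. Cacna1d (chromosome 14, 30039939 to 30491455, minus strand) encodes a channel that opens at low voltages and serves pacemaking and hair cell synapses. It was at 6.66, 8.75 and 22.6 CPM in the lowest, median and highest brush libraries, against 1.21, 1.73 and 4.81 CPM in EpCAM+ libraries and 8.62, 9.97, 4.05 and 11.9 CPM in CD45+ libraries. Brush libraries lay above all EpCAM+ libraries and overlapped with CD45+ libraries. The log2 fold change was 2.04 ± 0.43 over EpCAM+ cells (adjusted p = 0.000505) and 0.29 ± 0.49 over CD45+ cells (0.668). Dcp1a and Chdh overlap Cacna1d on the opposite strand, so reads of these genes cannot be told apart without the strand.

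Cacna1e (chromosome 1, 154390731 to 154884501, minus strand) had no count in any EpCAM+ library. Its level was 1.89, 3.44 and 4.26 CPM in the lowest, median and highest brush libraries, against 0 in all 7 EpCAM+ libraries and 5.75, 23.7, 13.9 and 5.08 CPM in CD45+ libraries. The 3 populations did not overlap. Brush cells were at least 32.6-fold higher than EpCAM+ cells, taken against 3 counts over the EpCAM+ group (adjusted p = 1.70e-06). They were lower than CD45+ cells by a log2 fold change of -1.92 ± 0.50 (adjusted p = 0.00428), a call lost without CD45+ replicate 2 (adjusted p = 0.0627) and with a replicate block (0.0699). Expected counts gave the same picture, with 110 in brush cells, 0 in EpCAM+ cells and 276 in CD45+ cells.

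**Figure D3:**
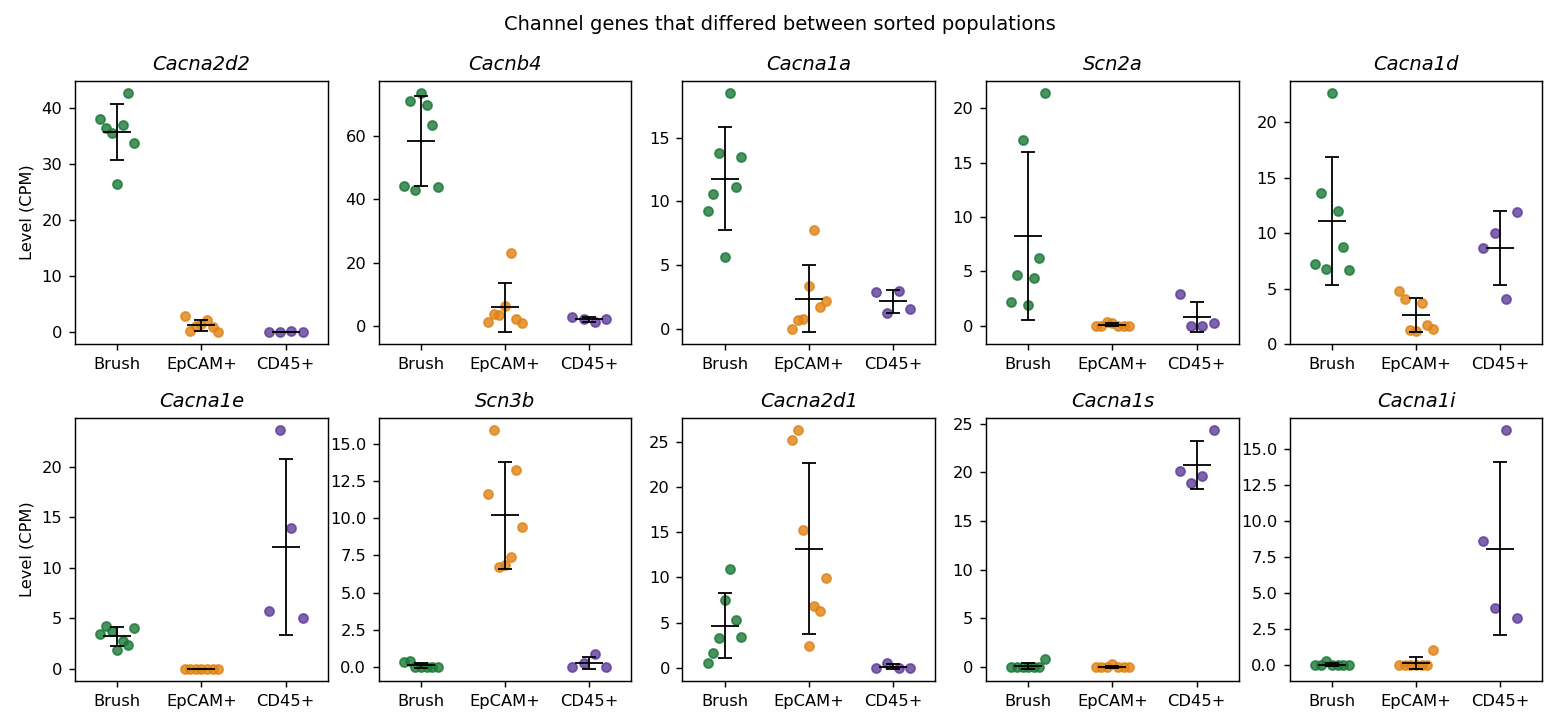
CPM of 10 channel genes in brush (n = 7), EpCAM+ (n = 7) and CD45+ (n = 4) libraries, with 1 point per library and bars at the mean ± SD, each panel on its own linear axis. Brush points lie above all others for Cacna2d2 and Cacnb4, EpCAM+ points for Scn3b, and CD45+ points for Cacna1s, Cacna1i and Cacna1e.

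Cacna1s and Cacna1i were highest in the CD45+ population. Cacna1s encodes the L-type channel that acts as voltage sensor of skeletal muscle, and lies on chromosome 1 (136052750 to 136119822, plus strand). It had counts in 1 of 7 brush libraries (0.833 CPM in replicate 7), in 1 of 7 EpCAM+ libraries (0.269 CPM in replicate 4) and in all 4 CD45+ libraries at 20.1, 18.9, 19.6 and 24.4 CPM. Between brush and EpCAM+ cells the counts were 7 and 2 (ratio 3.60, 95% counting interval 0.685 to 35.5, adjusted p = 0.291). The CD45+ libraries stood together, with a coefficient of variation of 11.9%. The log2 fold change of brush over CD45+ cells was -6.50 ± 0.76 (adjusted p = 1.87e-07), and -9.37 without brush replicate 7. At 15.5 ± 1.58 TPM (SD, n = 4) it was the highest channel transcript of CD45+ cells per transcript length. It took 54.3 ± 10.7% of the summed channel TPM there. In expected counts Cacna1s had 216 and Cacna1e 276 over CD45+ libraries, so its lead over Cacna1e in TPM rests on the transcript lengths used. Those lengths were not examined. Gm37014 on the same strand and Gm37759 on the opposite strand overlap Cacna1s, and their part was not tested.

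The partner of this channel in skeletal muscle, the calcium release channel gene Ryr1, was highest in the same libraries. It was at 0, 0.203 and 2.74 CPM in the lowest, median and highest brush libraries, against 0 in all EpCAM+ libraries and 25.9, 14.7, 10.7 and 9.91 CPM in CD45+ libraries. Of its 27 brush counts 23 were in replicate 7, the same library that held all 7 brush counts of Cacna1s. The log2 fold change of brush over CD45+ cells was -4.32 ± 0.83 (adjusted p = 0.000355), and -6.01 without brush replicate 7. Scn4a, the sodium channel of skeletal muscle, had 1, 0 and 101 counts in brush, EpCAM+ and CD45+ cells, 88 of the last in CD45+ replicate 3. The 6 muscle markers were Acta2, Myh11, Des, Actg2, Cnn1 and Myl1, most of them smooth muscle genes, so their sum does not measure skeletal muscle RNA. All were detected in each population. They summed to 0 to 6.16 CPM in the brush group, 0.743 to 4.85 in the EpCAM+ group and 2.85 to 4.57 in the CD45+ group. The part of skeletal muscle RNA in these levels was not tested.

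Cacna1i encodes a T-type channel known from thalamic neurons. It had 1 count in brush cells and 4 in EpCAM+ cells, in 1 library each, and was at 8.62, 3.99, 16.3 and 3.30 CPM in the 4 CD45+ libraries. All CD45+ libraries were above all others, and brush and EpCAM+ cells did not differ at the threshold (adjusted p = 0.383). The ratio of CD45+ to brush cells was 307 (95% counting interval 54.5 to 12208, adjusted p = 6.69e-06), and the fitted log2 value of -6.97 was -8.13 without brush replicate 3 and -6.11 without CD45+ replicate 3. The other T-type genes, Cacna1g and Cacna1h, were not tested, with 6 and 30 counts in brush cells, 8 and 43 in EpCAM+ cells and 0 and 32 in CD45+ cells.

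Cacna1c and Cacna1b did not differ between brush and EpCAM+ cells at the threshold. Cacna1c, the L-type channel of heart and smooth muscle, was at 0.813, 2.18 and 5.66 CPM in the lowest, median and highest brush libraries, against 0.212, 1.08 and 1.86 CPM in EpCAM+ libraries and 0, 0.748, 0.219 and 1.27 CPM in CD45+ libraries. The groups overlapped, with log2 fold changes of 1.19 ± 0.57 over EpCAM+ cells (adjusted p = 0.104) and 1.90 ± 0.78 over CD45+ cells (0.0497). The call against CD45+ cells was lost in 12 of 22 alternative settings, among them those without CD45+ replicates 1, 2 or 3 (adjusted p up to 0.175; value 2.55 without CD45+ replicate 4), and Dcp1b overlaps the gene on the opposite strand. Cacna1b, the N-type channel of nerve terminals, averaged 1.94 ± 1.32 CPM over brush libraries, 2.06 ± 1.5 over EpCAM+ libraries and 0.362 ± 0.321 in CD45+ cells (SD, n = 7, 7 and 4), with adjusted p = 0.98 and 0.0898 in the brush contrasts. Cacna1f, the L-type channel of the retina, was not tested and had 12, 2 and 42 counts in the 3 populations.

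Scn2a, which encodes a sodium channel pore of central neurons, was the leading sodium channel transcript of brush cells. It lies on chromosome 2 (65620771 to 65767447, plus strand). Brush replicates 1 to 7 held 12, 23, 63, 1, 8, 29 and 180 counts, against 2 counts each in EpCAM+ replicates 3 and 4 and none in the other 5, and 1, 0, 0 and 1 counts in the CD45+ libraries. The levels were 1.89, 4.66 and 21.4 CPM in the lowest, median and highest brush libraries, against 0, 0 and 0.371 CPM in EpCAM+ libraries and 2.87, 0, 0 and 0.254 CPM in CD45+ libraries. Brush replicates 3 and 7 stood high at 17.1 and 21.4 CPM, every brush library was above every EpCAM+ library, and the 2.87 CPM of CD45+ replicate 1 is 1 read. Over EpCAM+ cells the log2 fold change was 5.84 ± 0.85 (adjusted p = 6.62e-06). Over CD45+ cells, with 2 counts, the ratio was 93.0 (95% counting interval 25.5 to 772, adjusted p = 0.000437). The fitted log2 value of that contrast was 5.63, and it was 6.57 without CD45+ replicate 1 and 4.79 without CD45+ replicate 3.

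The 6 neuron markers summed to 4.17 to 18.1 CPM in the brush group, 5.94 to 46.1 CPM in the EpCAM+ group and 0 to 5.48 CPM in the CD45+ group, with Stmn2 at 0 in brush and CD45+ cells. Brush replicates 3 and 7, with the most Scn2a, had sums of 7.31 and 7.14 CPM, and the highest sum was in brush replicate 6. Neuroendocrine markers, 6 in all, summed to 16.4 to 331 CPM in the brush group and 4.27 to 1435 CPM in the EpCAM+ group. The CD45+ group had 13.2 to 18.3 CPM, with Resp18 at 0. Brush replicates 3 and 7 had neuroendocrine sums of 331 and 25.7 CPM. The part of neuronal or neuroendocrine RNA in the Scn2a level was not tested. Per transcript length Scn2a was at 6.11 ± 4.94 TPM in brush cells, 0.0857 ± 0.122 in EpCAM+ cells and 0.0275 ± 0.0550 in CD45+ cells (SD, n = 7, 7 and 4), and took 78.8 ± 18.6% of the sodium channel alpha TPM of brush cells.

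Most other sodium channel pore genes were sparse. Scn9a, a channel of pain-sensing neurons, was at 0, 0 and 2.23 CPM in the lowest, median and highest brush libraries, against 0, 1.60 and 11.5 CPM in EpCAM+ libraries and 0, 1.5, 0.438 and 0 CPM in CD45+ libraries. The groups overlapped, and the log2 fold change of brush over EpCAM+ cells was -2.52 ± 1.03 (adjusted p = 0.0541). It was called lower with a replicate block (-2.95, adjusted p = 0.0239) and without brush replicate 4 or EpCAM+ replicates 3, 4 or 5 (adjusted p 0.0274 to 0.0488). The remaining 8 were not tested. Scn3a, a channel of the developing brain, had 54, 14 and 4 counts in all brush, EpCAM+ and CD45+ libraries, and Scn8a, a channel of axon initial segments, had 15, 20 and 8. The expected counts of Scn8a were 30, 16 and 4, so the order of brush and EpCAM+ cells depended on the counting. Its level was 0.843 ± 0.771 TPM in brush cells, 0.0771 ± 0.132 in EpCAM+ cells and 0.0175 ± 0.035 in CD45+ cells (SD). Scn8a took 12.2 ± 9.0% of the sodium channel alpha TPM of brush cells, a share that rests on these few counts and on the transcript lengths used. Scn3a, with 40 expected counts in brush cells, took 3.46 ± 5.73%. Scn1a, Scn7a, Scn10a and Scn11a had 17 or fewer counts in all 18 libraries together.

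Scn3b was the reverse of Scn2a between the epithelial populations. It encodes the beta3 subunit of sodium channels and lies on chromosome 9 (40269217 to 40291618, plus strand). Its level was 0, 0 and 0.405 CPM in the lowest, median and highest brush libraries, against 6.69, 9.44 and 15.9 CPM in EpCAM+ libraries and 0, 0.249, 0.876 and 0 CPM in CD45+ libraries. All EpCAM+ libraries were above all others. Brush over EpCAM+ cells gave a log2 fold change of -5.95 ± 0.69 (adjusted p = 2.67e-07). EpCAM+ over CD45+ cells gave 4.47 ± 0.78 (5.34e-05; 6.12 without CD45+ replicate 3). Basal cell and fibroblast and chondrocyte markers were higher in the same EpCAM+ libraries, as given above for Cacna2d1, and their part was not tested here either. Per transcript length it was the first of the channel genes in EpCAM+ cells at 3.54 ± 1.30 TPM, beside Cacnb3 at 3.50 ± 2.87 TPM (SD, n = 7 each), a gap within their spread.

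The other sodium channel beta genes were not tested. Scn2b, the beta2 subunit, had 1, 0 and 80 counts in brush, EpCAM+ and CD45+ cells, with 0, 17, 55 and 8 in the 4 CD45+ libraries, and a noncoding gene, Gm10684, covers it on the opposite strand. Scn4b, the beta4 subunit, had 9, 23 and 4. Brush cells thus had 0.170 ± 0.299 TPM of sodium channel beta transcripts in all, against 3.81 ± 1.51 TPM in EpCAM+ cells and 1.43 ± 1.46 TPM in CD45+ cells (SD, n = 7, 7 and 4). Without a filter on low counts, Scn2b, Scn4a and Cacna1f were called lower in brush cells than in CD45+ cells.

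The gamma subunit genes had few counts or none. Cacng2, Cacng5 and Cacng7 had 0 counts in all 18 libraries, and Cacng1, Cacng3, Cacng4, Cacng6 and Cacng8 had 1 to 5 counts over all libraries. A count of 3 over a whole group would correspond to 0.101 CPM for the brush group, 0.0986 CPM for the EpCAM+ group and 0.172 CPM for the CD45+ group.

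**Figure D4:**
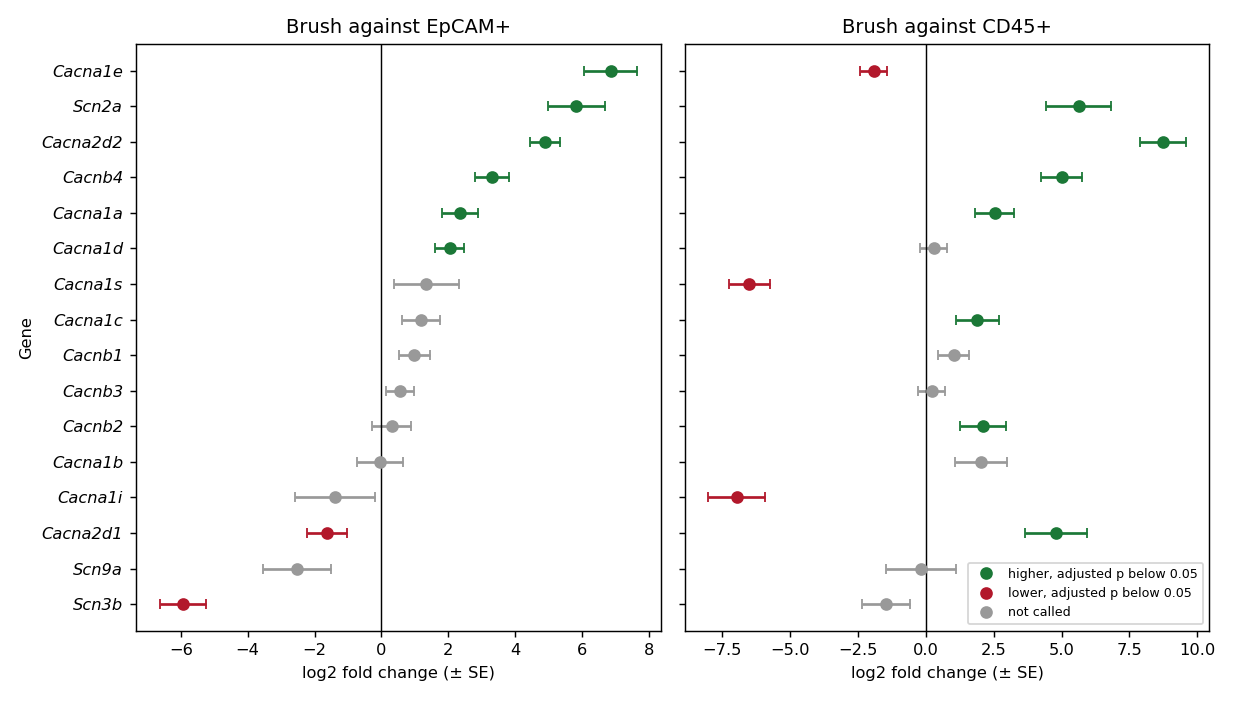
Fitted log2 fold change ± SE (edgeR) of the 16 tested channel genes for brush over EpCAM+ cells (left) and brush over CD45+ cells (right), with called genes in green (higher) and red (lower). Cacna2d2, Cacnb4, Scn2a and Cacna1a lie right of 0 in both panels. Values for genes with 0 to 3 counts in a group, such as Cacna1e in EpCAM+ cells and Cacna2d2 in CD45+ cells, depend on the fit's prior count and are not bounds.

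Set side by side per transcript length, the leading channel transcripts of brush cells were Cacna2d2 at 12.8 ± 7.47 TPM, Cacna1a at 8.83 ± 2.77, Cacnb3 at 7.01 ± 3.02, Scn2a at 6.11 ± 4.94 and Cacnb4 at 5.92 ± 2.11 TPM (SD, n = 7). Neighbours in this order did not differ beyond their spread. Cacna2d2 ranged from 2.58 TPM in replicate 4 to 26.4 TPM in replicate 7, wider than in CPM. In EpCAM+ cells the order was Scn3b, Cacnb3, Cacna2d1 at 2.37 ± 2.00 TPM and Cacnb2 at 1.76 ± 0.907 TPM. In CD45+ cells Cacna1s was followed by Cacnb3 at 3.38 ± 2.30 TPM and Cacna1e at 2.14 ± 1.59 TPM (SD, n = 4). These orders rest on the transcript lengths used for TPM, as given above for Cacna1a and Cacna1s. All 40 genes together came to 51.1 ± 19.4 TPM in brush cells, 17.2 ± 7.41 TPM in EpCAM+ cells and 29.5 ± 7.48 TPM in CD45+ cells, with brush libraries from 22.5 to 84.1 TPM overlapping both other populations.

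**Figure D5:**
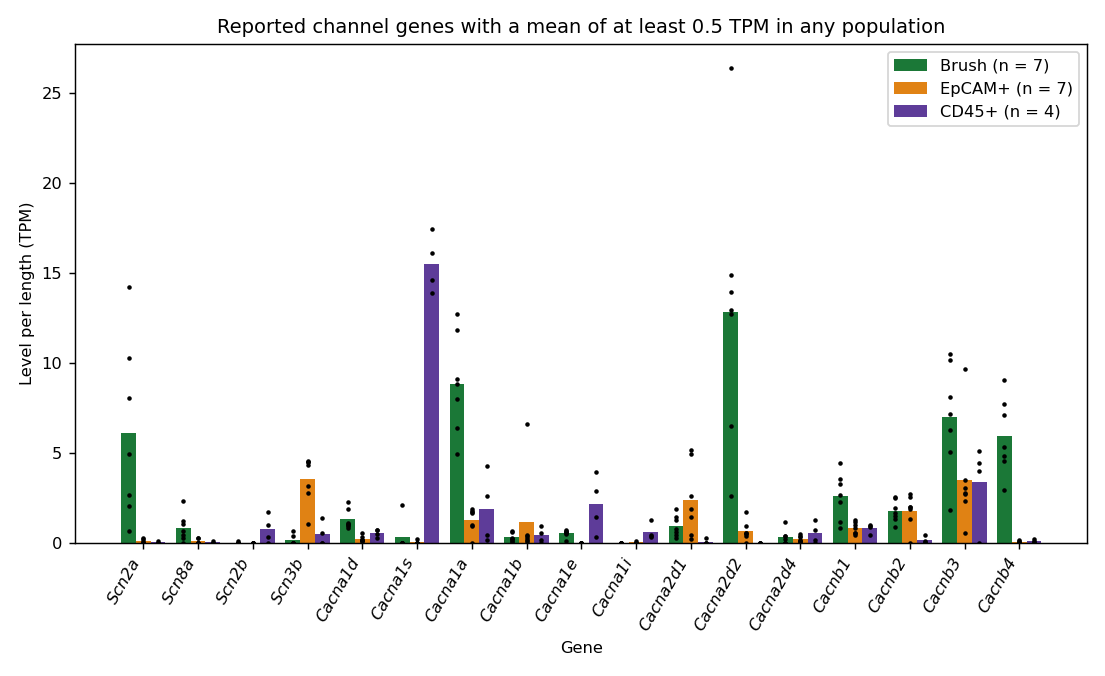
Mean TPM (bars) and single libraries (points) of the channel genes reported here with a mean of at least 0.5 TPM in any population, with brush, EpCAM+ and CD45+ cells from left to right for each gene. Cacna2d2 and Cacna1a lead in brush cells at 12.8 and 8.83 TPM, and Cacna1s in CD45+ cells at 15.5 TPM.

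The 7 genes called between EpCAM+ and CD45+ cells included Scn3b, given above. Cacna2d1 had 368 counts in EpCAM+ cells and 2 in CD45+ cells, a ratio of 105 (95% counting interval 29.0 to 874, adjusted p = 6.08e-05), with a fitted log2 value of 8.83 without CD45+ replicate 2 and 5.66 without CD45+ replicate 3. Cacna2d2 had 35 and 1, a ratio of 20.0 (3.37 to 814, adjusted p = 0.0018), with libraries that overlap. Its fitted log2 value of 3.84 was 5.30 without CD45+ replicate 3, 6.27 in expected counts and 1.91 with voom, where the call was lost (adjusted p = 0.0652). Cacna1s had 2 counts in EpCAM+ cells and 358 in CD45+ cells, a ratio of 312 for CD45+ over EpCAM+ cells (85.9 to 2590, adjusted p = 4.59e-08), and Cacna1e was at least 123-fold lower in EpCAM+ cells (7.01e-08). Cacna1i (-5.58 ± 0.90, and -8.14 without EpCAM+ replicate 7 or -4.74 without CD45+ replicate 3) and Cacna1d (-1.76 ± 0.49) were also lower in EpCAM+ cells.

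Genes whose products bind, place or modulate these channels were then counted. Of 28 listed channel partners, 20 were tested, and in brush cells 7 were higher and 3 lower than in EpCAM+ cells, where 18.3% and 22% of all genes tested were called higher and lower. Values in brackets here and below are log2 fold changes ± SE of called genes. Cabp1, a calcium sensor that modulates calcium channels, had 75 counts over the brush group and 0 over both other groups, a difference of at least 29.3-fold from EpCAM+ cells (adjusted p = 0.000111). Cachd1, an alpha2delta-like protein, was at 25.3 ± 9.75 CPM in the brush group and at 1.55 ± 1.09 CPM in the EpCAM+ group (4.06 ± 0.47, adjusted p = 2.58e-07). Rims2, an active zone scaffold that binds calcium channels, was at 13.54 ± 5.02 and 1.32 ± 1.08 CPM in these groups (3.37 ± 0.67), and Fgf14, which binds sodium channel tails, also rose (3.25 ± 0.92, and 4.09 without EpCAM+ replicate 2). The other higher ones were Calm2 (2.25), Tspan13 (2.19) and Ank3 (0.63). Ank3, the ankyrin that anchors sodium channels, lost its call without brush replicates 2, 3 or 7 or EpCAM+ replicates 1, 4, 5, 6 or 7 (adjusted p up to 0.123). That call was also lost with voom, without a filter, in expected counts and with a replicate block (adjusted p 0.0685 to 0.0911). The lower ones were Ahnak (-4.21 ± 0.56), Tmem37 (-2.70 ± 0.69) and Gem (-2.57 ± 0.44), the last a small GTPase that restrains calcium channels. For Tmem37 the value was -3.43 without brush replicate 1 and -2.08 without EpCAM+ replicate 5.

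Against CD45+ cells 9 partners were higher and 6 lower in brush cells, where 23.4% and 22.4% of all genes were. Cachd1 had 738 counts in brush cells and 1 in CD45+ cells, a ratio of 435 (95% counting interval 77.7 to 17186), and its fitted log2 value of 8.14 was 9.77 without CD45+ replicate 2 and 7.40 without CD45+ replicate 3. Ank3 had 1202 and 3, a ratio of 236 (80.5 to 1146), Fgf14 had 112 and 2, a ratio of 33.0 (8.92 to 276), and Cabp1 was at least 16.8-fold higher. Fgf14 lost its call with voom (adjusted p = 0.0668) and with a replicate block (0.0538), and its fitted value of 4.73 was 6.79 without CD45+ replicate 3. Rims2 (3.03 ± 0.87) was at 2.43 without CD45+ replicate 3 and 4.95 without CD45+ replicate 4. The lower ones with the largest changes were Tmem37 (-6.20 ± 0.75), Rrad (-5.37 ± 0.79), Ahnak (-4.77 ± 0.60) and Stac2 (-3.99 ± 0.93), of which Rrad is a GTPase that restrains calcium channels and Stac2 belongs to a family of calcium channel adaptors. Leaving out brush replicate 1 gave -6.86 for Tmem37 and -6.03 for Rrad, and leaving out brush replicate 5 gave -4.77 for Stac2. The median log2 fold change of the 20 genes was 0.58 over EpCAM+ cells and 1.23 over CD45+ cells, against -0.06 and 0.05 for all genes.

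Of 23 other sodium, calcium and cation channel genes, 12 were tested. Over EpCAM+ cells 3 were higher and 3 lower in brush cells (18.3% and 22% of all genes). Trpm5 was at 2327 ± 520 CPM in the brush group and at 1.04 ± 1.10 CPM in the EpCAM+ group (11.09 ± 0.68, adjusted p = 2.48e-11). Ryr1 had 27 counts in brush cells and 0 in EpCAM+ cells, mostly from replicate 7, with a fitted log2 value of 4.65 that was 2.85 without this library, and was not called in expected counts (adjusted p = 0.144). The subunits Scnn1g (-4.93 ± 0.78) and Scnn1a (-1.61 ± 0.35) of the epithelial sodium channel and the lysosomal channel Tpcn2 (-0.92 ± 0.32) were lower. Scnn1g was at -6.0 without brush replicate 1. Tpcn2 lost its call without EpCAM+ replicate 6 (adjusted p = 0.0542) and in expected counts (0.0526). Over CD45+ cells 5 were higher and 4 lower (23.4% and 22.4% of all genes). The higher ones included Trpm5 (11.36 ± 0.92), Unc79 (108 counts in brush cells, 62 of them in replicate 6, and 0 in CD45+ cells), Scnn1a (3.00 ± 0.51, and 4.46 without CD45+ replicate 3) and Trpm4 (1.60 ± 0.49). The lower ones were the proton channel gene Hvcn1 (-7.92 ± 0.68, and -7.12 without CD45+ replicate 3), Ryr1, Tpcn1 (-2.54 ± 0.44) and Tpcn2 (-1.60 ± 0.36). Unc79 was called without brush replicate 6 (adjusted p = 0.00991) and not called in expected counts (0.128). The median log2 fold change of the 12 genes was -0.41 over EpCAM+ cells and 1.01 over CD45+ cells.

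Of 13 listed genes that export calcium or sodium, 6 were tested. In brush cells 1 was higher and 4 lower than in EpCAM+ cells (18.3% and 22% of all genes), and 1 was higher and 4 lower than in CD45+ cells (23.4% and 22.4%). The uncalled ones were Atp2b1 against EpCAM+ cells (adjusted p = 0.702) and Slc24a3 against CD45+ cells (0.227). The higher one in both was Slc24a4, a potassium-dependent sodium-calcium exchanger. It was at 33.2, 48.8 and 70.6 CPM in the lowest, median and highest brush libraries, against 0, 0.743 and 4.04 CPM in EpCAM+ libraries and 0, 1.25, 0 and 0 CPM in CD45+ libraries, with no overlap. Its log2 fold change was 5.18 ± 0.57 over EpCAM+ cells (adjusted p = 1.38e-07; 5.89 without EpCAM+ replicate 2) and 7.07 ± 0.92 over CD45+ cells (9.32e-07; 10.67 without CD45+ replicate 2 and 6.28 without CD45+ replicate 3). The lower ones were Slc24a3 (-3.14 ± 0.83), Slc8a1 (-2.74 ± 0.54), Slc8b1 (-2.66 ± 0.51) and Atp2b4 (-2.64 ± 0.67). Without 1 brush library each, these were -3.99 for Slc24a3 (replicate 2), -3.39 for Slc8a1 (replicate 5) and -3.60 for Atp2b4 (replicate 3). Against CD45+ cells the lower ones were Atp2b4 (-5.46 ± 0.71), Slc8b1 (-4.52 ± 0.56), Slc8a1 (-3.36 ± 0.59) and Atp2b1 (-2.07 ± 0.28), with -6.42 for Atp2b4 without brush replicate 3 and -4.01 for Slc8a1 without brush replicate 5. Over the 6 genes the median was -2.65 against EpCAM+ cells and -2.72 against CD45+ cells. Atp2b1, a plasma membrane calcium pump, was at 104 ± 12.6 CPM in the brush group, 114 ± 25.7 CPM in the EpCAM+ group and 438 ± 186 CPM in the CD45+ group.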

How the data were processed

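Total RNA of 18 sorted libraries was analysed. The authors deposited raw whole-number counts for 26327 gene symbols, and, per the file headers, RSEM expected counts and TPM (a level scaled by transcript length) for 47729 gene identifiers, of which 47310 had a symbol. The submitters' processing notes name STAR 2.4.2a, RSEM 1.2.21, Picard 1.1073, DESeq2 and featureCounts, and the build mm10. Which annotation and strand setting the counting used is not given here. A deposited normalized table was not used.

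Counts were tested with edgeR 4.0.16 (R 4.3.3): TMM scaling, filterByExpr by group (13418 genes kept, 12909 removed), 1 quasi-likelihood fit of all libraries with group as the only term, and Benjamini-Hochberg adjustment over all genes. The SE was taken as the size of the log2 value over the root of its F statistic. Expected counts were rounded. Where a group had 0 counts, folds were taken against 3 counts over that group; with 1 to 3 counts, ratios carry exact 95% counting intervals. Intervals and floors cover counting error only. Coordinates are from GENCODE vM21 (GRCm38), promoters from RefSeq. Alternatives used DESeq2 1.42.0, voom (limma 3.58.1), other filters and scalings, expected counts, a replicate block and left-out libraries. The fit was tested on simulated data.

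The channel genes, gene lists and tests were chosen with earlier results of these data known. Tested channel genes are named with values and others with total counts. Of each other list, the called genes with the largest changes are named, up to 4 in each direction per brush contrast. Genes of those lists named beyond this were chosen after their values were seen. A few genes that enter the counts and sums are not reported by name here.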

Additional observations from a re-analysis of the deposited data

Results flagged for a closer look

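Of 35 groups of channel gene levels with at least 10 counts, 2 held a library whose gap to the nearest other library was too large for the group's range by Dixon's criterion, which chance alone meets in about 1 in 20 groups. Cacnb4 was at 23.1 CPM in EpCAM+ replicate 5, against 0.809 to 6.20 CPM in the other 6 EpCAM+ libraries. Scn9a, a sodium channel of sensory neurons, was at 11.5 CPM in EpCAM+ replicate 2, far above the EpCAM+ median of 1.60 CPM. EpCAM+ replicate 2 also had the highest summed neuron markers of the EpCAM+ libraries, 46.1 CPM, and their part in this value was not tested.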

How the results depend on the processing

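Of 25 channel gene results called across the 3 contrasts, 20 kept their call in every alternative that could be run and none changed direction. The exceptions were Cacna1c and Cacnb2 in brush against CD45+ cells, Cacna2d1 in brush against EpCAM+ cells, Cacna1e in brush against CD45+ cells and Cacna2d2 in EpCAM+ against CD45+ cells (voom adjusted p = 0.0652). The causes were not tested. Beside fits without 1 library, counts of called channel genes moved by more than 1.5 times in 3 cases: in brush over CD45+ cells 4 were higher with a 10 CPM minimum, and without a filter 7 were lower in brush than in CD45+ cells and 7 lower in EpCAM+ than in CD45+ cells. In the fit of only the 2 groups compared, 4 were higher in brush than in EpCAM+ cells, as Cacna1e and Scn2a did not pass its filter. Among the other lists, 5 channel partners were lower than in EpCAM+ cells without brush replicate 4, EpCAM+ replicate 5 and CD45+ replicate 1, other channels had 1 higher than in EpCAM+ cells and exporters 2 lower in the fit of 2 groups, and other channels had 3 higher than in CD45+ cells with a 10 CPM minimum. Leaving out 1 library at a time gave 5 to 8 channel genes higher in brush than in CD45+ cells, and 1 to 3 channel genes lower and 4 to 7 partners higher in brush than in EpCAM+ cells. Of 50 called results of the other lists, re-run by a choice made after seeing the data, 44 kept their call throughout, and the exceptions included Ank3, Tpcn2 and Ryr1 over EpCAM+ cells and Fgf14 and Unc79 over CD45+ cells.

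Only uncalled log2 values changed sign. In EpCAM+ against CD45+ cells, Cacna1a (0.19) was at -0.58 with voom, -0.40 with a replicate block, -0.37 without the 3 libraries set apart and -0.41 to 0.67 without 1 library. Cacnb1 (0.03) was at -0.13, -0.24, -0.10 and -0.28 to 0.32 in the same order. Scn2a (-0.21) was at 0.24 in expected counts, 0.91 without the 3 libraries and -1.02 to 0.72 without 1 library, and Cacnb4 (1.68) was at -1.06 in expected counts. In brush against EpCAM+ cells, Cacna1b (-0.04) was at 0.42 with voom and -0.31 to 0.17 without 1 library, Cacna1i (-1.39) at 0.10 and -2.55 to 1.16, and Cacna1s (1.35) at -1.59 to 2.94 without 1 library. In brush against CD45+ cells, Cacnb3 (0.21) was at -0.017 to 0.49, Scn3b (-1.48) at -2.01 to 0.19 and Scn9a (-0.19) at -0.65 to 0.96 without 1 library.

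The labels do not say whether replicate numbers pair the libraries. Deviations of same-numbered libraries correlated at -0.07 to 0.24 for brush and EpCAM+ cells. The range was -0.20 to 0.10 for brush and CD45+ cells and -0.18 to 0.26 for EpCAM+ and CD45+ cells. In this order 2 of 7, 0 of 4 and 1 of 4 libraries correlated best with their own number. Low correlations cannot exclude pairing, since differences between libraries can mask a shared source. With a replicate block, 6 channel genes were higher and 2 lower in brush than in EpCAM+ cells (Cacna2d1 lost its call and Scn9a gained one), 5 and 2 in brush against CD45+ cells, and 3 and 4 in EpCAM+ against CD45+ cells. Depth limits the 24 untested genes, of which 3 had no count.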
